A study of Mus musculus with 6 samples.

Results

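The proteins of the mitochondrial ribosome were examined at the transcript level in double negative T (DNT) cells kept with and without the cytokine IL-33. The members are the protein-coding genes whose mouse symbol in GENCODE starts with Mrpl or Mrps and a digit, with retrocopies left out. There are 77 of them among the 26128 genes with counts, 48 with a large subunit symbol (Mrpl) and 29 with a small subunit symbol (Mrps), and all 77 passed the filter on low counts. The rule uses symbols and no measured value.

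RNA was sequenced from 6 libraries, 3 of control cells and 3 of cells given IL-33 at 50 ng/ml for 48 h. Every library came from DNT cells obtained by conversion in vitro of CD4+ T cells from adult C57BL/6 mice with mature dendritic cells of DBA/2 mice and IL-2, sorted as CD3+ cells lacking NK1.1, CD4 and CD8, and then stimulated with anti-CD3/CD28 beads. The labels name the spleen as the source of the T cells and the study's methods spleen and lymph nodes. Neither group carried an altered allele, and IL-33 is the single treatment that separates them. Nothing in the sources used here shows that the libraries of a group came from separate mice or cultures, so the p-values measure the spread between these libraries, which may be technical.

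The mitochondrial ribosome translates the few mRNAs encoded by mitochondrial DNA, all of which specify subunits of the respiratory chain and ATP synthase. Its rRNAs are encoded in the mitochondrial genome, while its proteins are encoded in the nucleus, made on cytosolic ribosomes and imported. Some of these proteins have a counterpart in the bacterial ribosome and others are found in mitochondria alone. Activated T cells are known to build mitochondria as they leave quiescence and to need mitochondrial translation to divide.

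The symbols do not always give the place of the protein. Mrps30 and Mrps18a encode proteins that sit in the large subunit, and the product of Mrps36 belongs to the oxoglutarate dehydrogenase complex. With these genes put in place, 50 members belonged to the large subunit and 26 to the small one.

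Promoter sequence was available from RefSeq (GRCm38.p6) for 68 of the 77 members. The 250 bases before the start are shown for 4 members whose level changed with IL-33, because they make up most of the window of the motif counts given further on, which also takes in 50 bases after the start, and these promoters show it with and without a match. Capitals mark the letters GCATGCGC of nuclear respiratory factor 1 (NRF-1) or CCGGAAG of the ETS family, to which the GABP factor belongs, on either strand. Mrpl45 lies at chr11:97315466-97315715 on the plus strand, Mrpl9 at chr3:94443086-94443335 on the plus strand, Mrpl17 at chr7:105811088-105811337 on the minus strand and Mrps16 at chr14:20393635-20393884 on the minus strand.
Mrpl45: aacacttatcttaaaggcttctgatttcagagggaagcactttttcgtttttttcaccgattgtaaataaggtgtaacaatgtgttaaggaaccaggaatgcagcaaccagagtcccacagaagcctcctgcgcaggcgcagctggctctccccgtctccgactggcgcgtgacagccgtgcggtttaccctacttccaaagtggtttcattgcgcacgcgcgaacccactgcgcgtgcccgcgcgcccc
Mrpl9: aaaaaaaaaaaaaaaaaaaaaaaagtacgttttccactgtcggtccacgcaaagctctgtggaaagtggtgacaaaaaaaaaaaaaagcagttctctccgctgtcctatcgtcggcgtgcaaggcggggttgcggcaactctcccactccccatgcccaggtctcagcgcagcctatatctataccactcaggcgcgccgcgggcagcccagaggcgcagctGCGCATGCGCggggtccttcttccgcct
Mrpl17: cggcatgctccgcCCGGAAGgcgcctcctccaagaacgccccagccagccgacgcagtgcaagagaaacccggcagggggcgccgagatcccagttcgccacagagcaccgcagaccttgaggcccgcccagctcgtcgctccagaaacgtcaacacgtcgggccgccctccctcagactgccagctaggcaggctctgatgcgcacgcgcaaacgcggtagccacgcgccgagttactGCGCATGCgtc
Mrps16: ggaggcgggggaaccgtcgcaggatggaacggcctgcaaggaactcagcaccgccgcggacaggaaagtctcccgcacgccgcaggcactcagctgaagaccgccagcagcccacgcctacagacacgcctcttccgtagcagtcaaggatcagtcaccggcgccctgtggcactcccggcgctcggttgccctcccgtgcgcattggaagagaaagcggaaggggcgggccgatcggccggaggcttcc

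Mrpl9 held the NRF-1 letters on both strands, overlapping, from 28 and 26 bases before the start. Mrpl17 held them once, within the last 11 bases, with the ETS letters near the far end of the window. Neither was found in the 250 bases shown for Mrpl45 or Mrps16.

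IL-33 was followed by small differences in a few mitochondrial ribosomal protein genes and by none of 1.5-fold. With an adjusted p under 0.05, 7 members were higher and 1 was lower with IL-33, together 8 of 77 or 10.4%. Over all 14671 genes tested, 27.5% were called at this threshold, 13.6% higher and 13.9% lower, and among the 7981 genes whose mean level lay within the range of the members the share was 27.0%. The share of members called was therefore below the background on both counts. No member was past both this threshold and a fold change of 1.5 in either direction, which 4.87% of all genes tested were. Calls are from edgeR's quasi-likelihood test, with p adjusted by the Benjamini-Hochberg method across the whole table. Without adjustment, 15 of the 77 members had a p under 0.05, against 5462 of the 14671 genes tested. Fewer cells with a given transcript and less RNA per cell cannot be told apart in these bulk libraries.

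The log2 fold changes of the members ran from -0.29 for Mrpl55, whose adjusted p was 0.0643 in edgeR's quasi-likelihood test, to 0.37 for Mrpl45. Their median was 0.02, beside -0.00063 for all genes tested, and 42 members were above and 35 below 0. The groups of libraries did not overlap in 18 members, 11 with every IL-33 library above every control library and 7 below, whereas 38.9% of all genes tested had groups that did not overlap. The 95% interval of the log2 fold change lay within a fold change of 1.5 in either direction (0.58 on the log2 scale) in 76 of 77 members, and within a fold change of 1.2 in 38. The exception was Mrps23, a small subunit protein found in mitochondria alone, whose interval ran from -0.78 to 1.00. Its control libraries had 18.3, 35.4 and 34.5 CPM (counts per 1000000, scaled by TMM) and its IL-33 libraries 26.1, 38.2 and 30.7, so that the first control library stood apart and the groups overlapped.

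**Figure D1:**
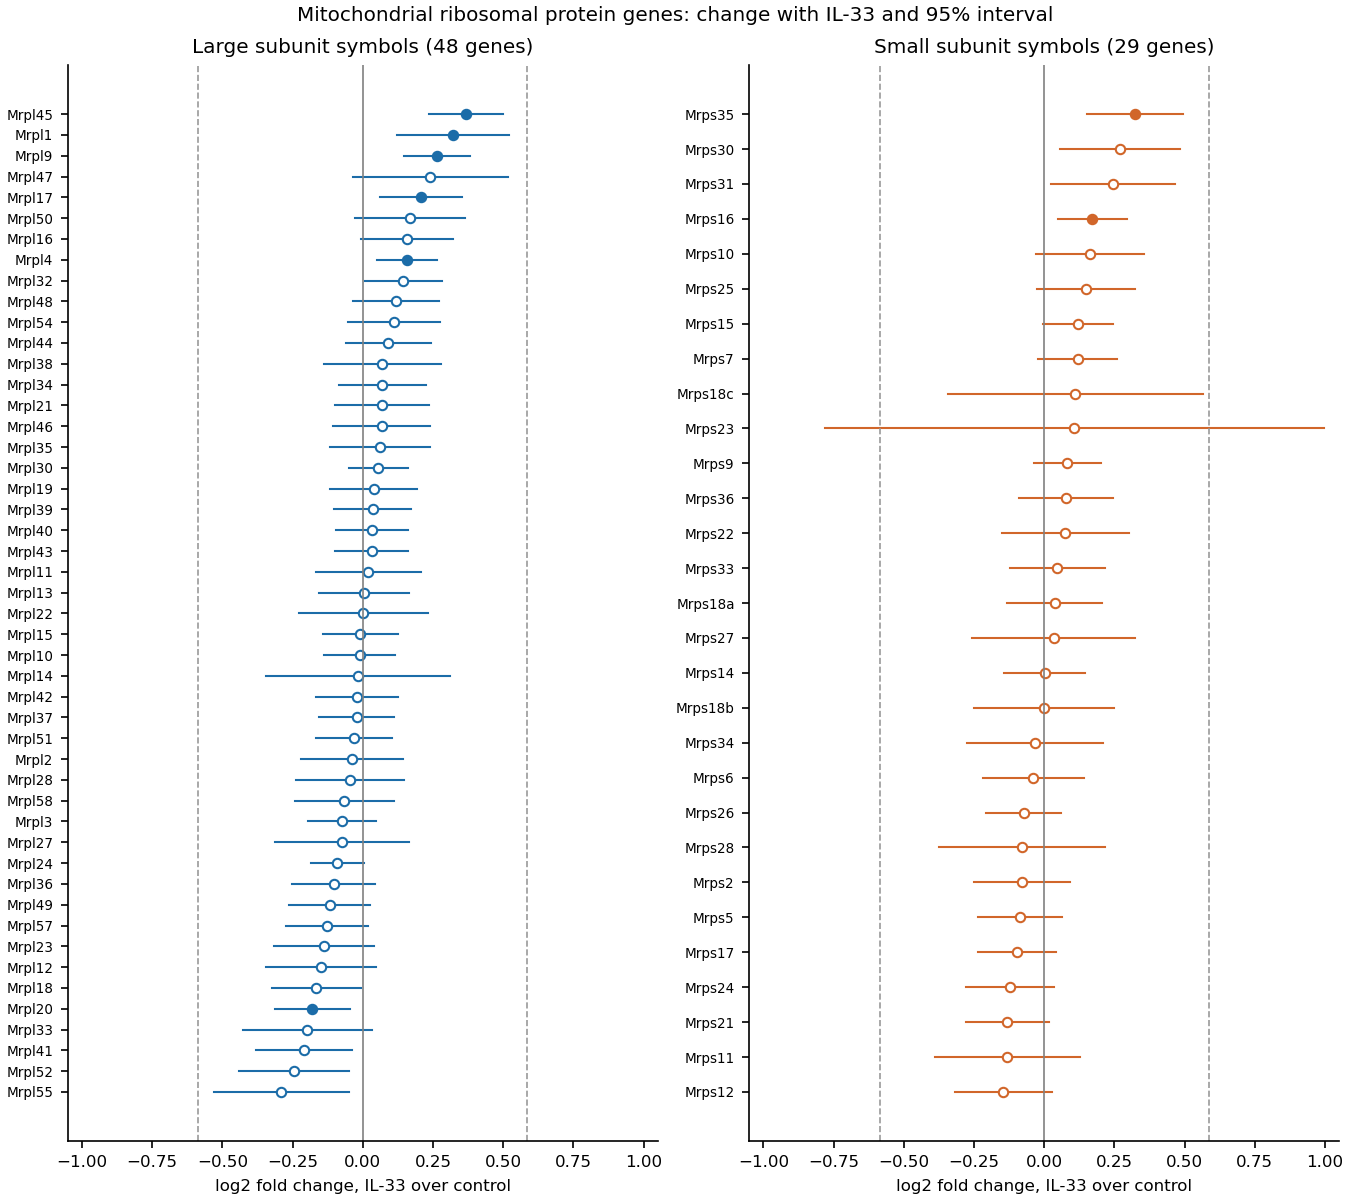
Log2 fold change (IL-33 over control, horizontal axis) of each of the 77 members with its 95% interval, large subunit symbols on the left and small on the right. Filled points mark the 8 members with an adjusted p under 0.05, dashed lines mark a fold change of 1.5 on either side of 0, and the interval of Mrps23 alone crosses them.

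The largest rise was that of Mrpl45, a large subunit protein near the exit of the peptide tunnel that helps to hold the ribosome at the inner membrane. Its level was 30.9, 31.4 and 29.0 CPM in the control libraries and 37.1, 40.0 and 40.7 CPM in the IL-33 libraries. Every IL-33 library was above every control library, by a log2 fold change of 0.37 (SE 0.066, adjusted p = 3.47e-06, edgeR's quasi-likelihood test). This call was kept under all 13 alternatives that use the adjusted p alone.

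Mrpl9, whose bacterial counterpart is the large subunit protein L9, had 38.3, 46.2 and 42.3 CPM in control and 50.9, 50.3 and 51.1 CPM with IL-33. The IL-33 libraries lay close together and above the control libraries, which were more spread. The log2 fold change was 0.27 (SE 0.059, adjusted p = 0.000192, edgeR's quasi-likelihood test). Exons of Mrpl9 share 157 bases with Oaz3 on the other strand, which averaged 0.188 CPM. Of the 8 called members it was the only one to share exon bases with another gene.

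Mrps35, a small subunit protein without a bacterial counterpart, had 18.1, 17.3 and 19.5 CPM in control and 23.8, 23.5 and 21.7 CPM with IL-33. The groups did not overlap, and the log2 fold change was 0.32 (SE 0.086, adjusted p = 0.00184, edgeR's quasi-likelihood test). Mrpl9 and Mrps35 also kept their calls under all 13 of these alternatives.

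Mrpl1, the counterpart of the bacterial protein of the L1 stalk, had 12.9, 15.1 and 13.7 CPM in control and 15.8, 17.2 and 19.2 CPM with IL-33, with no overlap. Its log2 fold change was 0.32 (SE 0.100, adjusted p = 0.00915, edgeR's quasi-likelihood test). The call was lost without control replicate 1 (adjusted p = 0.0604) and without IL-33 replicate 3 (adjusted p = 0.0971), in the same edgeR test.

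The other 4 calls were smaller. Mrpl17, a counterpart of bacterial L17, had 25.02, 25.4 and 26.6 CPM in control and 30.7, 30.7 and 27.7 CPM with IL-33, and Mrpl4, a counterpart of the bacterial L4 that lines the peptide tunnel, had 55.3, 49.0 and 52.1 CPM in control and 56.5, 59.1 and 58.7 CPM with IL-33. Neither gene had overlapping groups, and their log2 fold changes were 0.21 (SE 0.073) and 0.16 (SE 0.054). Mrps16, a counterpart of bacterial S16, had 48.7, 49.9 and 44.6 CPM in control and 54.7, 59.2 and 47.5 CPM with IL-33, for a log2 fold change of 0.17 (SE 0.061). It was the single called member whose groups overlapped, because IL-33 replicate 3 was below 2 of the 3 control libraries. Mrpl20, whose bacterial counterpart acts early in assembly of the large subunit, was the member that fell. Its level was 36.7, 37.3 and 37.1 CPM in control and 35.9, 30.3 and 31.8 CPM with IL-33, a log2 fold change of -0.18 (SE 0.067).

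The adjusted p from edgeR's quasi-likelihood test was 0.0236 for Mrpl17, 0.0196 for Mrpl4, 0.0275 for Mrps16 and 0.0336 for Mrpl20. Each of these 4 calls depended on single libraries. In the same edgeR test, Mrpl17 rose to adjusted p = 0.0777 without control replicate 1, 0.0715 without control replicate 2, 0.101 without IL-33 replicate 1 and 0.101 without IL-33 replicate 2. Mrpl4 rose to adjusted p = 0.164 without control replicate 2, 0.0683 without IL-33 replicate 2 and 0.0547 without IL-33 replicate 3. Mrps16 rose to adjusted p = 0.172 without control replicate 3, 0.111 without IL-33 replicate 1 and 0.297 without IL-33 replicate 2, and it also lost its call with limma-voom (adjusted p = 0.0593). Mrpl20 rose to adjusted p = 0.0874 without control replicate 2, 0.0768 without control replicate 3, 0.227 without IL-33 replicate 2 and 0.112 without IL-33 replicate 3. DESeq2 called none of these 4 and kept the other 4. The called members are listed in the files as ENSMUSG00000018882 (Mrpl45), ENSMUSG00000040112 (Mrps35), ENSMUSG00000029486 (Mrpl1), ENSMUSG00000028140 (Mrpl9), ENSMUSG00000030879 (Mrpl17), ENSMUSG00000049960 (Mrps16), ENSMUSG00000003299 (Mrpl4) and ENSMUSG00000029066 (Mrpl20).

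**Figure D2:**
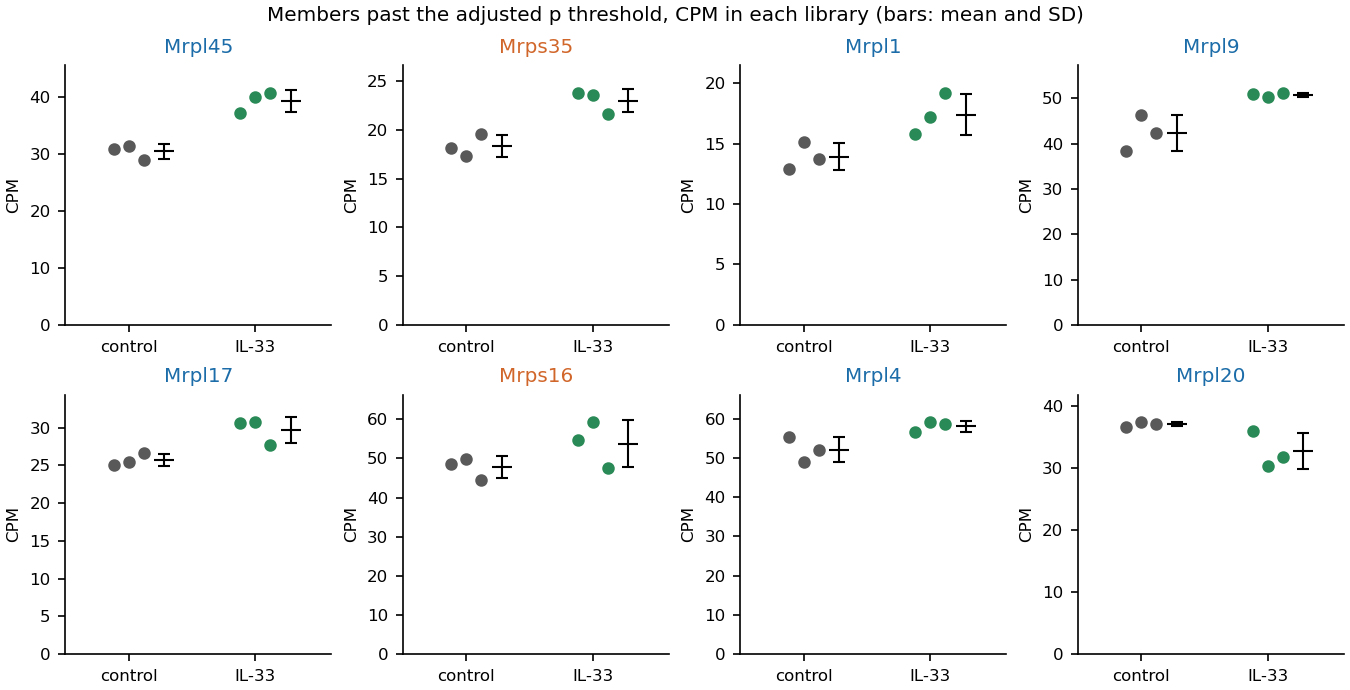
Level in CPM (vertical axis, from 0) of the 8 members with an adjusted p under 0.05 in each control and IL-33 library, with the mean and SD of n = 3 libraries beside the points. All panels but that of Mrps16 show groups that do not overlap, and Mrpl20 is the only one with IL-33 libraries below the control libraries.

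The members that changed came from both subunits. Among the 48 large subunit symbols 5 rose and 1 fell, with a median log2 fold change of 0.0036, and among the 29 small subunit symbols 2 rose and none fell, with a median of 0.037. With members assigned by place, the counts stayed at 5 and 1 of 50 and at 2 and 0 of 26, and the medians were 0.013 and 0.017. Of 30 large subunit members with a bacterial counterpart 4 rose (Mrpl1, Mrpl4, Mrpl9 and Mrpl17) and 1 fell (Mrpl20), and of 20 found in mitochondria alone 1 rose (Mrpl45). In the small subunit 1 of 16 with a bacterial counterpart rose (Mrps16) and 1 of 10 found in mitochondria alone (Mrps35). The share called was 12.5% of large and 6.9% of small subunit symbols, and 12% and 7.69% by place. With and without a bacterial counterpart, it was 16.7% and 5% in the large and 6.25% and 10% in the small subunit. Each of these was below the 27.5% of all genes tested. No class was tested against another.

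Of the symbols that mislead as to place, Mrps30 was the nearest to a call. Its mean was 11.6 ± 0.616 CPM in control and 14.0 ± 0.490 CPM with IL-33 (SD, n = 3), with no overlap, for a log2 fold change of 0.27 and an adjusted p of 0.0517 in edgeR's quasi-likelihood test. It was called with limma-voom (adjusted p = 0.0484) and in edgeR with a minimum of 1 CPM throughout either group (adjusted p = 0.0461). Mrps18a differed by 0.04 and Mrps36 by 0.08 on the log2 scale, with groups that overlapped.

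Summed over the 48 large subunit symbols, the level was 1251, 1291 and 1250 CPM in control and 1283, 1295 and 1257 CPM with IL-33. Over the 29 small subunit symbols it was 602, 627 and 638 CPM in control and 648, 660 and 613 CPM with IL-33. The groups overlapped in both sums. The ratio of large to small was 2.08, 2.06 and 1.96 in control and 1.98, 1.96 and 2.05 with IL-33, a mean of 2.03 ± 0.0635 against 2.00 ± 0.0468 (SD, n = 3). The difference in the ratio of -0.033 was smaller than the SD of either group. Single libraries moved it by over 1.5 times, to -0.010 without control replicate 1, -0.020 without control replicate 2, -0.070 without control replicate 3, -0.015 without IL-33 replicate 2 and -0.060 without IL-33 replicate 3. With levels per kb it was -0.057, between the SDs of 0.0699 in control and 0.0486 with IL-33. With members assigned by place it was -0.023, smaller than the SDs of 0.0702 and 0.0595. All members together made up 0.187% to 0.192% of the counts in control and 0.186% to 0.194% with IL-33.

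**Figure D3:**
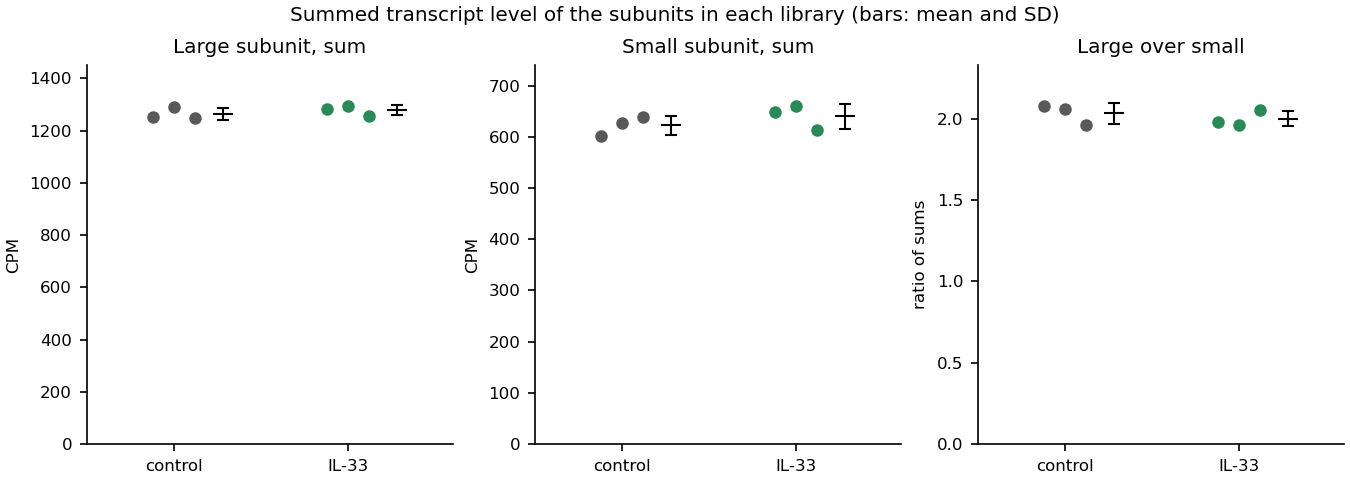
Summed level in CPM of the 48 large and the 29 small subunit symbols and the ratio of these sums (vertical axes, from 0) in each library, with the mean and SD of n = 3 libraries beside the points. Control and IL-33 libraries overlap in every panel, and the ratios lie between 1.96 and 2.08.

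The levels of the members differed far more from one another than between the groups. On a scale of CPM per kb of principal transcript, control levels ran from 2.03 for Mrpl47 to 81.9 for Mrpl52, a 40.4-fold range. The median large subunit symbol was at 16.9 and the median small subunit symbol at 10.1 CPM per kb. In every library the large subunit median was above the small one, by 1.604-fold to 1.751-fold. The mean of this ratio over the libraries was 1.68, and 1.48 with the length of all exons of a gene in place of the principal transcript, a setting chosen after the data had been seen.

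Among the large subunit symbols Mrpl52 (81.9 CPM per kb), Mrpl30 (55.4) and Mrpl24 (53.8) were highest in control. The 3 libraries had 78.1, 82.9 and 84.6 CPM per kb for Mrpl52, 55.6, 57.1 and 53.6 for Mrpl30, and 53.7, 53.2 and 54.5 for Mrpl24. Mrpl52 was above both others in each control library, and Mrpl30 and Mrpl24 overlapped. With IL-33, Mrpl52 had 82.1, 68.1 and 57.17 CPM per kb and Mrpl30 had 56.0, 59.6 and 57.26, so these overlapped. Lowest were Mrpl47 (2.03 CPM per kb), Mrpl17 (3.52) and Mrpl1 (3.91), and the last 2 were among the members that rose. By place Mrps30 (3.51) would stand between Mrpl47 and Mrpl17. Mrpl17 has a principal transcript of 7300 bases, the longest of any member, and its level per gene was 25.7 ± 0.820 CPM in control (SD, n = 3).

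Among the small subunit symbols Mrps21 (60.7 CPM per kb), Mrps15 (39.4) and Mrps9 (30.6) were highest in control, all of them counterparts of bacterial proteins. Lowest were Mrps25 (3.17 CPM per kb), Mrps30 (3.51) and Mrps27 (3.59), which overlapped between libraries. Mrps30 belongs to the large subunit by place, and without it the third lowest was Mrps18c (3.90). These orders depend on the transcript chosen. Counted over all exons, Mrps9 spans 5763 bases rather than 1418, and Mrps25 shares 4590 exon bases with Nr2c2 on the other strand. Mrpl24 shares 594 with Rrnad1, and Mrpl47 shares 616 with Ndufb5 and 452 with Actl6a, also on the other strand. Whether the counting used the strand is not given in the sources used here, so reads of such pairs cannot be told apart.

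**Figure D4:**
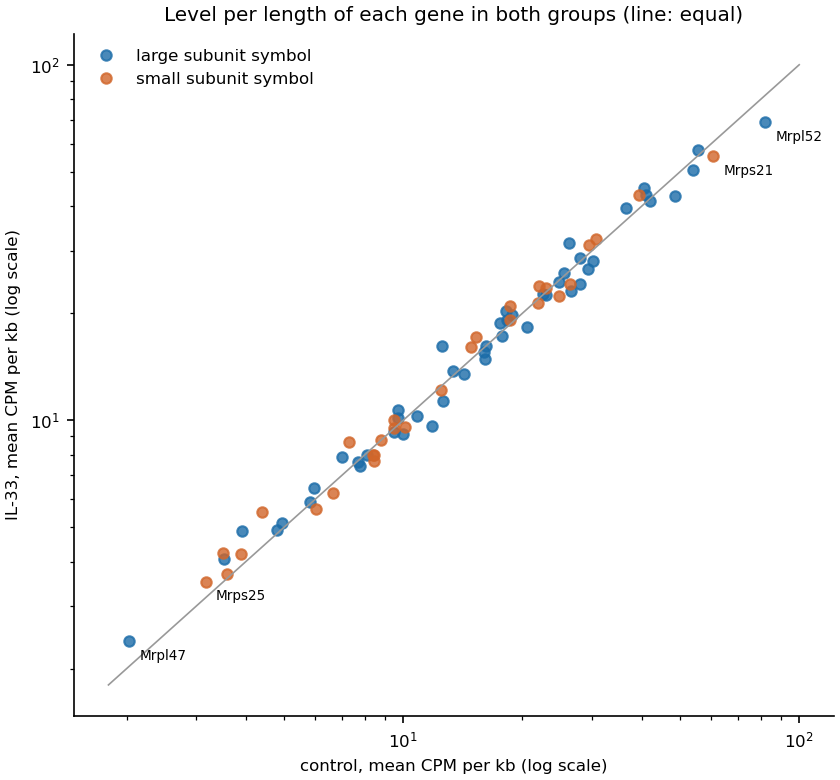
Mean level of each member in control (horizontal axis) and with IL-33 (vertical axis) in CPM per kb of principal transcript, both on log scales, by subunit symbol, with the line of equal levels. The points run along the line from Mrpl47 at 2.03 to Mrpl52 at 81.9 CPM per kb in control.

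Replicates were close for most members. The coefficient of variation had a median of 5.58% in control and 5.81% with IL-33, and it exceeded 15% in a group for 8 members. The widest was that of Mrps23 in control, at 32.8%, and with IL-33 that of Mrps18c, the member with the fewest reads, at 21.8%. The 4 retrocopies named after members had at most 25 counts in any library.

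In their position, 28 of the 77 members (36.4%) had the start of another protein-coding gene on the other strand within 1000 bases, against 14.1% of the 11933 protein-coding genes tested. None of the 8 called members had such a neighbour. Of 26 neighbours that could be tested, Mrpl46 and Mrps11 among them, 8 were called (30.8%), against 27.5% of all genes tested. Some of these pairs join genes for mitochondrial proteins. Mrpl46 and Mrps11, whose products belong to different subunits, start 30 bases apart and differed by 0.07 and -0.13 on the log2 scale. Mrps12, which encodes a protein of the decoding site, starts 232 bases from Sars2, the mitochondrial seryl-tRNA synthetase, and they differed by -0.15 and -0.09. Mrpl43 starts 116 bases from Twnk, the helicase of mitochondrial DNA, and they differed by 0.03 and -0.23. Mrpl47 pairs with Ndufb5, a subunit of respiratory complex I, and they differed by 0.24 and -0.04. None of these genes was called. Mrpl46 and Mrps11 share 173 exon bases and Mrpl43 and Twnk share 507, on opposite strands.

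In the promoter window, 250 bases before to 50 after the start, the ETS letters CCGGAAG were present on either strand in 24 of the 68 members found in RefSeq (35.3%), against 19.5% of the 9464 protein-coding genes tested that were found there. The NRF-1 letters GCATGCGC were present in 8 members (11.8%), against 5.68%. The letters AAGATGGC, bound by the factor YY1, were present in 12 members (17.6%), against 4.88%. The E-box CACGTG was present in 5 members (7.35%), against 9.99%, and the GC box GGGCGG in 33 (48.5%), against 65.2%. With the 55 members whose RefSeq start lay within 100 bases of the start in GENCODE, the shares were 38.2% for ETS, 10.9% for NRF-1 and 18.2% for YY1, against 20.2%, 6.02% and 5.08% of all such genes. Among the 6 called members with a window, NRF-1 letters were present in 2 (Mrpl9 and Mrpl17), ETS letters in 1 (Mrpl17) and YY1 letters in 0. Of these 6, the RefSeq start lay 622 bases from the start in GENCODE for Mrpl1 and 643 for Mrpl20. Their windows may therefore miss the start used in these cells. These are matches of letters, described without a test.

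Counts of both rRNAs of the mitochondrial ribosome rose with IL-33. The sources differ on the library kit, and the part of library preparation in these counts was not tested. mt-Rnr2, the large subunit rRNA, had 812, 834 and 787 CPM in control and 1048, 1086 and 1083 CPM with IL-33. mt-Rnr1, the small subunit rRNA, had 322, 353 and 328 CPM in control and 379, 390 and 382 CPM with IL-33. In both genes every IL-33 library was above every control library. The log2 fold changes were 0.40 (SE 0.025, adjusted p = 2.93e-27) for mt-Rnr2 and 0.20 (SE 0.031, adjusted p = 7.28e-08) for mt-Rnr1 in edgeR's quasi-likelihood test.

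Of 13 mitochondrially encoded mRNAs, 11 were tested, and 5 rose with none falling, 45.5% against 27.5% of all genes tested. The 5 that rose were mt-Nd1, mt-Nd2, mt-Nd5 and mt-Nd6, subunits of complex I, and mt-Co1, of complex IV, with log2 fold changes between 0.15 and 0.21. The one with the most reads, mt-Co1, had 10456, 10477 and 10125 CPM in control and 11494, 11377 and 11613 CPM with IL-33. Summed, the 13 mRNAs were at 17343 to 18172 CPM in control and 19519 to 19828 CPM with IL-33. For mt-Nd3, mt-Nd4l and mt-Atp8 every library was under 1 CPM, so they add almost nothing to this sum. The 11 tested had a median SE of 0.036 on the log2 scale, against 0.084 for the members. The lowest mean among the 11 was 0.638 CPM. Whether such low counts come from the level or from the counting was not tested.

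The proteins that build the ribosome and work with it were counted by role. None of 5 mitochondrial ribosomal proteins with other symbols (Dap3, Ptcd3, Gadd45gip1, Chchd1 and Aurkaip1) was called, and their median log2 fold change was 0.08. Of 28 assembly and rRNA modification factors 1 rose and 1 fell, 7.14% against 27.5% of all genes tested. Ngrn, which is needed for the large subunit rRNA, had 17.2, 17.5 and 16.2 CPM in control and 18.4, 20.6 and 21.1 CPM with IL-33 (log2 fold change 0.24, adjusted p = 0.0398 in edgeR's test), and it kept its call in 4 of 13 settings. Without single libraries its adjusted p in edgeR's test was 0.067, 0.0616 and 0.14 for control replicates 1, 2 and 3, and 0.112 and 0.15 for IL-33 replicates 2 and 3. Mpv17l2, an assembly factor of the inner membrane, had 12.1, 8.02 and 14.0 CPM in control and 1.77, 2.81 and 4.91 CPM with IL-33 and was the only listed gene of mitochondrial gene expression past both thresholds (log2 fold change -1.84, adjusted p = 0.0445 in edgeR's test). Its call was lost without control replicate 1 (adjusted p = 0.13), control replicate 3 (0.0875) or IL-33 replicate 2 (0.152) in edgeR's test.

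Of 16 translation factors and mRNA-binding proteins tested, 2 rose and 1 fell, 18.8% against 27.5% of all genes tested. Tufm, the elongation factor that brings aminoacyl-tRNA to the ribosome, had 48.7, 49.9 and 45.9 CPM in control and 56.3, 58.6 and 59.2 CPM with IL-33 (log2 fold change 0.27, adjusted p = 3.44e-05 in edgeR's test). Mrrf, which recycles ribosomes after termination, had 7.30, 6.79 and 6.66 CPM in control and 10.4, 8.92 and 8.82 CPM with IL-33 (0.44 on the log2 scale, adjusted p = 0.00735 in edgeR's test, and 0.0695 without IL-33 replicate 1). Lrpprc, which stabilises mitochondrial mRNAs, had 61.9, 59.0 and 57.9 CPM in control and 52.9, 51.3 and 54.6 CPM with IL-33 (-0.17 on the log2 scale, adjusted p = 0.00871 in edgeR's test, and 0.061 without control replicate 1 and 0.0595 without IL-33 replicate 2). For these genes the groups of libraries did not overlap.

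Of 20 genes for mitochondrial aminoacyl-tRNA synthesis, Tars2, the threonyl-tRNA synthetase, fell, from 54.3, 58.2 and 58.9 CPM to 45.1, 46.8 and 48.9 CPM (log2 fold change -0.28, adjusted p = 1.65e-05 in edgeR's test). It was the only call, 5% of the list against 27.5% of all genes tested. Lars2, the leucyl-tRNA synthetase, varied widely within both groups, with 128, 202 and 363 CPM in control and 108, 132 and 259 CPM with IL-33, and was not called. None of 12 genes for transcription and replication of mitochondrial DNA was called, and 1 had an unadjusted p under 0.05. Of 9 regulators of mitochondrial biogenesis tested, Nrf1 and Pprc1 fell, 22.2% against 27.5% of all genes tested. Nrf1, which encodes the factor NRF-1, had 51.2, 47.9 and 49.5 CPM in control and 43.8, 39.3 and 46.1 CPM with IL-33 (log2 fold change -0.20, adjusted p = 0.00571 in edgeR's test, and 0.118 without IL-33 replicate 2). Pprc1, a coactivator that works with it, had 43.1, 44.1 and 43.9 CPM in control and 35.4, 36.0 and 37.9 CPM with IL-33 (-0.26 on the log2 scale, adjusted p = 0.000412 in edgeR's test).

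**Figure D5:**
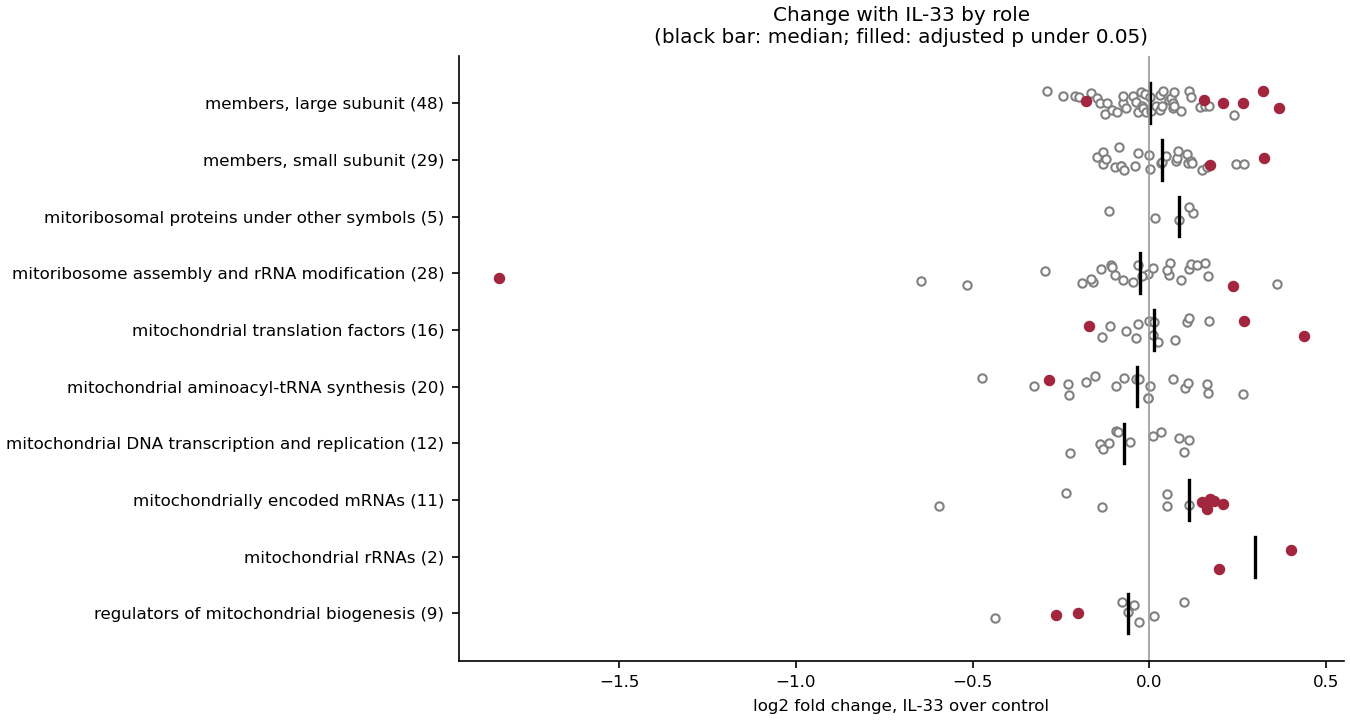
Log2 fold change (IL-33 over control, horizontal axis) of each gene tested, by role in mitochondrial gene expression, with the number of genes in parentheses, the median as a black bar and filled points for an adjusted p under 0.05. Both rRNAs and 5 of 11 mitochondrial mRNAs are filled on the right, and the members have medians of 0.0036 and 0.037. The median SE is 0.028 for the rRNAs, 0.036 for the mRNAs and 0.084 for the members, so equal differences need not be called alike.

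Compared by count with the genes most like them, 7 of 77 members rose and 1 fell (median log2 fold change 0.02). Of 81 cytosolic ribosomal protein genes 27 rose and 1 fell (0.04). Of 79 nuclear genes for respiratory chain and ATP synthase subunits 14 rose and none fell (0.05). The shares called were 10.4%, 34.6% and 17.7%, against 27.5% of all genes tested, 13.6% higher and 13.9% lower. The cytosolic ribosomal protein genes had more reads behind each gene, with a median of 602 CPM against 22.96 CPM for the members, not per length, and their median SE was 0.028 against 0.084 on the log2 scale. The respiratory chain list also had more reads than the members, with a median of 54.1 CPM and a median SE of 0.055. The lists were not tested against each other.

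For the libraries as a whole, total counts ran from 20256342 to 22336050. T cell markers were summed at 4063 to 4215 CPM in control and 4092 to 4243 CPM with IL-33, with none of 13 under 1 CPM. Of these 13, 1 was called higher and 4 lower, 38.5% against 27.5% of all genes tested. Of the gated molecules, Cd8a was at 545 ± 13.6 CPM in control and 400.2 ± 9.15 CPM with IL-33 (SD, n = 3) although the sort excluded CD8, Cd8b1 at 9.68 and 16.3, Klrb1c (NK1.1) at 33.5 and 25.6, and Cd4 at 0.934 and 0.373. All 4 were called, Cd8b1 higher and the others lower, and 2 were past both thresholds. Dendritic and myeloid markers, 15 listed, were summed at 103 to 106 CPM in control and 81.2 to 87.6 CPM with IL-33, with 8 under 1 CPM in every library, among them H2-Aa, Csf1r and Lyz2. Of the 8 tested, Itgam (2.61 and 4.83 CPM) and H2-Ab1 (24.8 and 30.3) rose, Itgax (54.6 and 26.0) and Cd74 (5.66 and 3.78) fell, and 6 had a positive log2 fold change, with a median of 0.20. The share called was 50%. B cell markers were summed at 5.41 to 5.84 and 5.77 to 6.35 CPM, and mast cell and basophil markers at 39.6 to 43.4 and 28.6 to 33.3 CPM, in control and with IL-33. Neither B cell marker tested was called. Of 4 mast cell and basophil markers tested 2 fell (50%), 1 of them past both thresholds. The part of all these markers in the results above was not tested.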

How the data were processed

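RNA-seq of 6 libraries of DNT cells was analysed, 3 control and 3 with IL-33, grouped by their labels. For each library the authors deposited unnormalized read counts by gene, and 1 column of signal, the mean over all libraries of counts divided by size factors, which was not used. The submitters' processing notes name Bowtie 0.12.2 and the mm8 build. How reads were counted, with which annotation and whether by strand, is not given in the sources used here. For the libraries, the paper's methods name the NEBNext Ultra kit but the labels TruSeq. Every column of values could be matched to a sample.

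Of 26128 Ensembl identifiers, 26072 matched GENCODE M21 (GRCm38), which gave symbols, starts, exons and the length of the principal transcript. It holds 78 genes under the rule for members, of which 77 had counts, and 1 was not analysed here. Promoters are from the RefSeq table of GRCm38.p6. Total counts ran from 20256342 to 22336050 per library. Within each group, libraries were further apart than sampling noise allows for 1 library deposited again.

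Genes were filtered with filterByExpr (minimum count 10, minimum total count 15), which kept 14671 genes and left out 0.110% of the counts, and scaled by TMM. IL-33 was compared with control by edgeR's quasi-likelihood method (robust, two-sided, no covariates), and p was adjusted by Benjamini-Hochberg across these genes. As in the study, the thresholds were an adjusted p under 0.05 and a fold change of 1.5 in either direction. SEs and 95% intervals are from the same fit, and each mean ± SD is in CPM over n = 3. The fit was tested on simulated data with the same dispersion for every gene and known changes of 1.5-fold or more. That test does not cover changes as small as those of the members. R 4.3.3, edgeR 4.0.16, limma 3.58.1 and DESeq2 1.42.0 were used.

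The members, lists and tests were chosen with earlier results of these data known. Named were every member past both thresholds, up to 8 called members at each end of the fold changes with at least 1 CPM, the 3 highest and 3 lowest per kb in each subunit, Mrps30, Mrps18a and Mrps36, members with a listed neighbour, and in each list the genes past both thresholds and up to 3 called genes with the smallest p. Mrpl55, Mrps23, Mrps18c, Lars2, the marker genes, and the remaining list genes named were chosen after their values were seen. Alternatives were DESeq2, limma-voom, size factors of DESeq2, library totals alone, no filter, a minimum of 1 CPM throughout either group, a replicate block, the omission of each library, and a test against the fold change threshold.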

Additional observations from a re-analysis of the deposited data

How the results depend on the processing

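No member was past both thresholds under any setting, the test against the fold change threshold included, in which 113 of all genes were called. Mrpl45, Mrpl9 and Mrps35 kept their calls under the 13 alternatives that use the adjusted p alone, and no member was called by the test against the fold change threshold. DESeq2 called 4 members higher and 0 lower, all 4 among those of edgeR. In edgeR, 15 of the 77 members had an unadjusted p under 0.05, against 5462 of the 14671 genes tested. The number of members lower was 2 with limma-voom, 4 with library totals alone, 2 without a filter and 2 with a minimum of 1 CPM throughout either group. The added genes were Mrpl52 in each of these and Mrpl41 and Mrpl55 with library totals alone. Mrps30 was added as higher with limma-voom, which lost Mrps16, and with the minimum of 1 CPM. Leaving out single libraries gave 4 to 6 members higher and 0 to 2 lower, with medians of -0.0086 to 0.042 in the large and -0.0032 to 0.080 in the small subunit on the log2 scale. The level per kb of the large over the small subunit was 1.48-fold with all exons as length, a setting chosen after the data had been seen, because the lengths differ.

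Without control replicate 1, Mrpl46 turned to -0.024 (range without single libraries -0.024 to 0.14), and Mrps27 turned to -0.0032 without control replicate 1, -0.059 without control replicate 2 and -0.017 without IL-33 replicate 2 (range -0.059 to 0.17). Neither was called. With the replicate number as a block, 3798 of all genes were called against 4036, and the same 8 members, 7 higher and 1 lower. Same-numbered libraries correlated at 0.012, 0.0032 and 0.011 in their deviations from the group means, and each library correlated best with its own number. These values are small and cannot show whether same-numbered libraries shared a culture or mouse. With 3 libraries a group, differences well above their SE could go uncalled, as did that of Mrpl55 at -0.29 (SE 0.121). The intervals do not cover differences between mice or cultures that the labels do not give.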
